A study of Mus musculus with 12 samples.

Results

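The genes described here are 10 genes of the NRF2 antioxidant response, chosen by name, of 44345 genes listed: Nfe2l2, Keap1, Hmox1, Gclc, Gclm, Txnrd1, Srxn1, Slc7a11, Gsr and Sod2. All 10 had a row, and all 10 passed the filter on low values. RNA came from dorsal root ganglia (DRG, levels L4 to L6), where the somata of the sensory axons in the sciatic nerve lie. The animals were C57BL/6 mice of 6 to 8 weeks, and each library pooled ganglia of 2 mice. The 4 groups had 3 libraries each and are named as in the labels: IPA-SNC, PBS-SNC, IPA and PBS. IPA-SNC mice were gavaged daily with 20 mg/kg of IPA (indole-3-propionic acid, a bacterial breakdown product of tryptophan) for 10 days, then a sciatic nerve crush (SNC), then IPA for 3 further days. PBS-SNC mice received phosphate-buffered saline, the vehicle, before the crush; the labels do not make clear whether vehicle gavage continued after it. IPA and PBS mice received the same 10 days of gavage and kept an intact nerve. The labels name no transgene or deletion in any group and give neither sex nor batch.

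NRF2 (encoded by Nfe2l2) is a transcription factor that KEAP1 holds in the cytoplasm and delivers to the ubiquitin ligase that marks it for destruction. Oxidants and electrophiles modify cysteines of KEAP1, NRF2 then accumulates, pairs with small MAF proteins and binds antioxidant response elements, and BACH1 competes for the same sites as a repressor. Its textbook targets make glutathione (Slc7a11, Gclc, Gclm), recycle glutathione and thioredoxin (Gsr, Txnrd1), repair overoxidised peroxiredoxins (Srxn1) and degrade haem (Hmox1), while Sod2 is the mitochondrial superoxide dismutase and is also a known target of other factors. In DRG, sensory neurons are surrounded by satellite glia, and nerve injury changes both, and brings in macrophages.

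Values are those deposited by the authors, in a CPM-like unit in which gene length was not divided out, so a level is compared between genes only per kilobase (kb) of exon. Recovered reads per library came to 40938034 to 62501969, and 1 read was worth 0.0130 to 0.0199 of the unit. Slc7a11 rested on 86 to 160 reads per library and the other members on 1204 to 62200. In the first principal component, which held 76.4% of the variance, crushed libraries scored -31.9 to -25.7 and intact libraries 25.2 to 32.7. PBS-SNC replicate 1 stood apart on the second, at -23.6 against 5.04 and 1.29 in the other libraries of its group, and calls of members under vehicle that changed without it are given with and without it. The tissue label was checked against 10 sensory neuron markers, all above the filter in these libraries: Scn10a, a sodium channel of nociceptors, averaged 552 in IPA-SNC, 558 in PBS-SNC, 837 in IPA and 893 in PBS libraries.

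Promoter windows of 300 bases (from 250 bases before to 50 after a RefSeq start site, GRCm38.p6) were available for 7 of the 10 genes: Nfe2l2, Keap1, Gclm, Txnrd1, Srxn1, Slc7a11 and Sod2. The windows were searched on both strands for the core letters of an antioxidant response element, TGACNNNGC, and for an AP-1 site, TGAGTCA (the site of JUN and FOS factors). The first was found in 4 of the 9 windows of these genes (1 each for Nfe2l2, Gclm, Srxn1 and 1 of the Txnrd1 windows), against 12.4% of all 32851 windows, and the second in the Srxn1 window alone, against 5.20% of all windows. Shown are the windows of Srxn1, Txnrd1 and Gclm, the genes with a match whose levels passed the test after injury, read 5′ to 3′ along the gene, with capitals marking matches. In Srxn1 the AP-1 letters stand at -102 to -96 and again at -45 to -39 from the start site. The element core stands on the opposite strand at 28 to 36, and no match to the letters searched overlaps another. The AP-1 match at -45 to -39 is followed by GC, so a core starting TGAG in place of TGAC would overlap it. A match describes the letters only. Windows are chr2:152105274-152105573 (plus strand), chr10:82858956-82859255 (plus strand, window 2 of 3 for this gene) and chr3:122245307-122245606 (plus strand).
Srxn1: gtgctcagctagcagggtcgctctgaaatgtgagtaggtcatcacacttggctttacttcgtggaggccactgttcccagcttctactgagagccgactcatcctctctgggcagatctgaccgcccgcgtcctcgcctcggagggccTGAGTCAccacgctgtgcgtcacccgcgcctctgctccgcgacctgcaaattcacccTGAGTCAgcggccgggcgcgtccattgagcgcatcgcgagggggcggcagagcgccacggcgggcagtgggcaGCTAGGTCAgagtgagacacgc
Txnrd1: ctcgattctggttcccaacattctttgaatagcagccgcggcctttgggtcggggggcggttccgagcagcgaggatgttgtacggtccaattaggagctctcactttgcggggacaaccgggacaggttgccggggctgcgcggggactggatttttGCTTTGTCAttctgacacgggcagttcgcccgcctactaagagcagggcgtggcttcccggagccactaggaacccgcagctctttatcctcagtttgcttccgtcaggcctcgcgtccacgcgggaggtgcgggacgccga
Gclm: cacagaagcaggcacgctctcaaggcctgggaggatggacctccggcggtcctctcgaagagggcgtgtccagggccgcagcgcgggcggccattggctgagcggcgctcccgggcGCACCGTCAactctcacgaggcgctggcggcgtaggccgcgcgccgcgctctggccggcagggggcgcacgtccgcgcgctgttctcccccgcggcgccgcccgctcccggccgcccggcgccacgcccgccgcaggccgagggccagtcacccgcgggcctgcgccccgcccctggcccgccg

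Per kb of merged exons, Srxn1 stood far above the other members in every group. Its level per kb averaged 292 in IPA-SNC, 307 in PBS-SNC, 104 in IPA and 107 in PBS libraries. Gsr (29.1, 26.6, 24.8 and 24.1 in the same order of groups) and Txnrd1 (28.7, 29.3, 19.4 and 19.7) came next, with Txnrd1 above Gsr in the PBS-SNC group alone. Gclm followed at 17.9, 17.2, 21.3 and 22.3 per kb. Hmox1, Nfe2l2, Gclc, Keap1 and Sod2 lay close together, between 8.58 and 15.0 per kb over all groups, and neighbours in that range did not keep a fixed order. Slc7a11 was lowest by far, at 0.125 in IPA-SNC, 0.169 in PBS-SNC, 0.136 in IPA and 0.126 in PBS libraries. Its merged exons span 13.922 kb, which lowers this value if a shorter transcript is the main one. The same limit applies to the other members, among them Sod2 with 10.008 kb, Txnrd1 with 7.086 kb and Gclm with 6.291 kb.

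**Figure D1:**
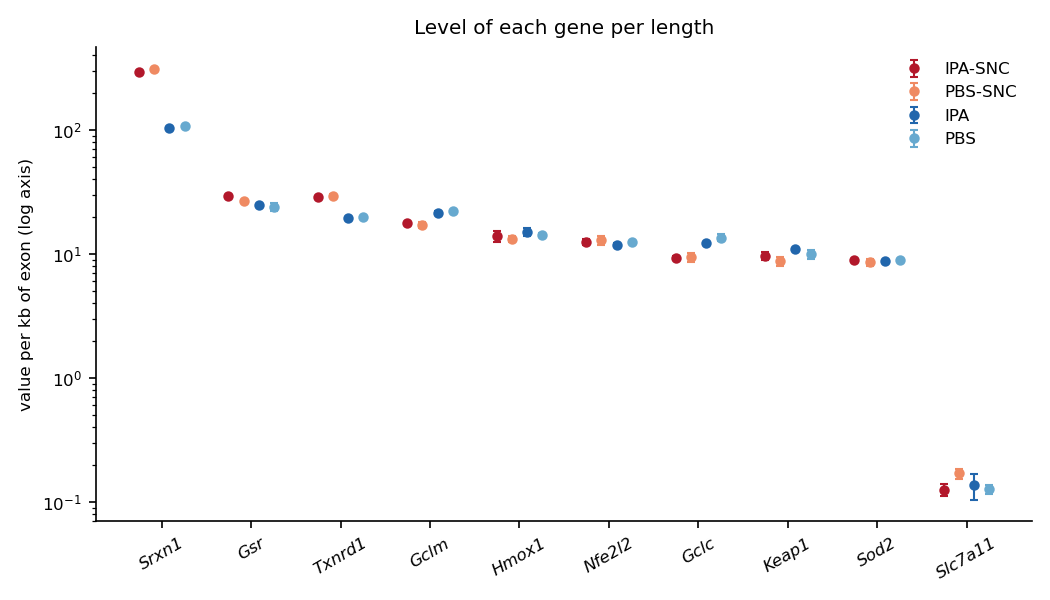
Mean level per kb of merged exon (log axis, deposited CPM-like value divided by exon length) of each of the 10 genes in the 4 groups, with bars for the SD over 3 libraries. Srxn1 lies at 104 to 307, Slc7a11 at 0.125 to 0.169 and the other 8 genes between 8.58 and 29.3.

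Nerve crush changed the members in opposite directions. Srxn1 and Txnrd1 of the thioredoxin system rose, the 2 subunit genes of glutamate-cysteine ligase fell, and the regulators Nfe2l2 and Keap1, with Hmox1 and Sod2, did not pass the test. In vehicle mice 4 members rose and 2 fell (limma, adjusted p under 0.05 over 15603 genes), where 48.0% of all genes tested passed in either direction, 23.6% higher and 24.4% lower. Without PBS-SNC replicate 1, 3 rose and 3 fell, where 53.3% of all genes passed: the Slc7a11 call was lost and Sod2 was called lower. In IPA mice 3 rose and 2 fell, against 43.6% of all genes, 21.2% higher and 22.5% lower. Read against these shares, the number of members that passed is no result about the family. The median log2 change of the 10 was -0.0018 under vehicle and -0.03 under IPA, against -0.0045 and -0.02 for all genes. Dosing ran 3 days longer in IPA-SNC than in IPA mice, so injury and length of dosing cannot be told apart there. In whole ganglia, fewer cells of a type and less RNA per cell cannot be told apart.

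**Figure D2:**
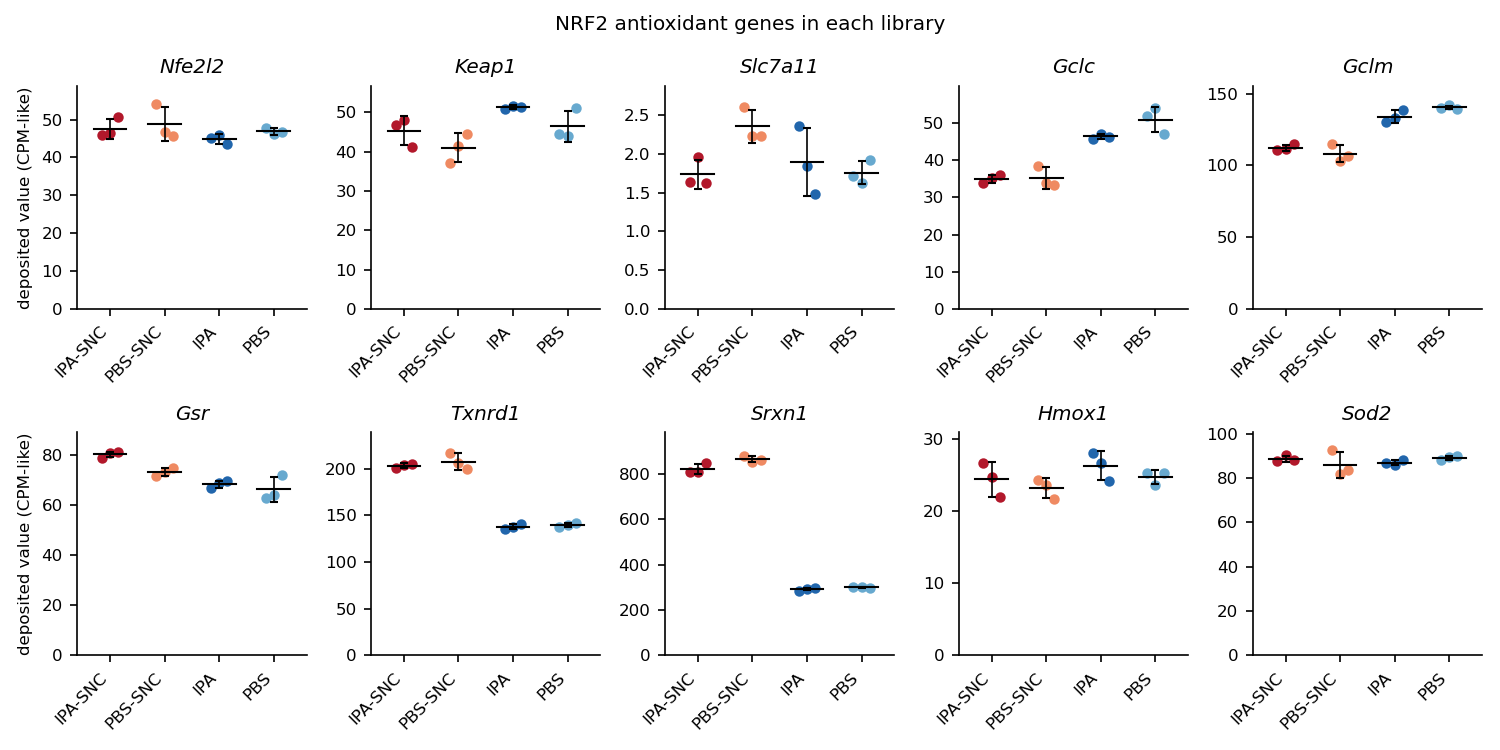
Deposited CPM-like value of each gene in each library (points), with the mean (line) and SD (bar) of 3 libraries per group; axes start at 0. Srxn1 and Txnrd1 are higher in all 6 crushed than in all 6 intact libraries and Gclc and Gclm lower, while Nfe2l2, Hmox1 and Sod2 overlap.

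Srxn1, sulfiredoxin, which returns overoxidised peroxiredoxins to their working form (ENSMUSG00000032802, chromosome 2, 152105516 to 152111376), had the largest change. It measured 881, 854 and 864 in PBS-SNC libraries, against 302, 301 and 298 in PBS libraries. In IPA-SNC libraries it measured 811, 810.4 and 850.1, against 286, 294 and 295 in IPA libraries. Each crushed library held far more than each intact one, and the groups did not come near each other. The log2 change was 1.53 ± 0.04 (SE, limma adjusted p = 1.64e-12) under vehicle, a 2.88-fold difference of means, and 1.495 ± 0.04 (adjusted p = 2.28e-12) under IPA, a 2.82-fold difference. By log2 change it ranked 211 and 192 from the top among 15603 genes. Of the summed deposited value of the 10 members, Srxn1 took 58.1% ± 0.6 in PBS-SNC and 33.1% ± 0.4 in PBS libraries (SD, n = 3 each). Gene length is not divided out of this share, so it is a share of the members' reads and not of their levels per kb.

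Txnrd1, the cytosolic thioredoxin reductase (ENSMUSG00000020250, chromosome 10, 82833951 to 82897712), rose less. It was 217, 206 and 199 in PBS-SNC libraries, against 138, 139 and 141 in PBS libraries, and 200.3, 204 and 205 in IPA-SNC libraries, against 135, 138 and 140.3 in IPA libraries. The lowest crushed library was well above the highest intact one. The log2 change was 0.57 ± 0.04 (limma adjusted p = 7.68e-08) under vehicle and 0.56 ± 0.04 (adjusted p = 1.05e-07) under IPA. Since Srxn1 rose more than Txnrd1, the ratio of their levels per kb was 10.2 to 10.9 in PBS-SNC libraries against 5.30 to 5.51 in PBS libraries, and 9.97 to 10.4 in IPA-SNC against 5.29 to 5.38 in IPA libraries.

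Gclc and Gclm encode the catalytic and the modifier subunit of glutamate-cysteine ligase, the rate-limiting enzyme of glutathione synthesis, and both fell after crush. Gclc (ENSMUSG00000032350, chromosome 9, 77754535 to 77794485) was 38.5, 33.9 and 33.2 in PBS-SNC libraries, against 51.8, 53.9 and 47.1 in PBS libraries, and 33.9, 35.2 and 35.9 in IPA-SNC libraries, against 45.8, 47.2 and 46.4 in IPA libraries. Every crushed library was below every intact one. Its log2 change was -0.53 ± 0.06 under vehicle (limma adjusted p = 1.16e-05) and -0.40 ± 0.06 under IPA (adjusted p = 0.000153). Gclm (ENSMUSG00000028124, chromosome 3, 122245557 to 122270732) was 115, 103 and 107 in PBS-SNC libraries, against 139.9, 142 and 139.6 in PBS libraries, and 111, 112 and 115 in IPA-SNC libraries, against 130.2, 133 and 139 in IPA libraries. Crushed and intact libraries did not overlap here either, with a log2 change of -0.38 ± 0.05 under vehicle (adjusted p = 1.55e-05) and -0.25 ± 0.05 under IPA (adjusted p = 0.000555). With each library's trend on GC content and length removed, the Gclm change was -0.25 under vehicle and -0.18 under IPA. The ratio of Gclm to Gclc per kb was 1.79 to 1.92 in PBS-SNC libraries and 1.57 to 1.77 in PBS libraries, and 1.90 to 1.95 in IPA-SNC and 1.69 to 1.79 in IPA libraries. Gclm shares 244 exon bases with the pseudogene Gm6061 on its strand and 296 with Gm17494 on the other, and how the authors assigned such reads is not given in the sources used here.

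Gsr and Slc7a11 stand at the recycling and the supply end of the glutathione pathway. Gsr rose under both treatments and Slc7a11 under vehicle, and both calls under vehicle were lost when certain single libraries were left out. Gsr, glutathione reductase (ENSMUSG00000031584, chromosome 8, 33652523 to 33698163), was 71.6, 73.1 and 74.8 in PBS-SNC libraries, against 62.9, 63.9 and 71.9 in PBS libraries, and 79.0, 80.6 and 81.2 in IPA-SNC libraries, against 66.8, 68.8 and 69.5 in IPA libraries. The vehicle groups overlapped through PBS replicate 3, and the IPA groups did not. Its log2 change was 0.15 ± 0.05 under vehicle (limma adjusted p = 0.0314) and 0.23 ± 0.05 under IPA (adjusted p = 0.00249). The vehicle call was lost without PBS-SNC replicate 2 (adjusted p = 0.0655), PBS-SNC replicate 3 (0.0991), PBS replicate 1 (0.141) or PBS replicate 2 (0.114). Slc7a11, the cystine transporter subunit that brings in the building block of glutathione (ENSMUSG00000027737, chromosome 3, 49892526 to 50443614), was 2.61, 2.23 and 2.23 in PBS-SNC libraries, against 1.71, 1.63 and 1.92 in PBS libraries. In IPA-SNC libraries it was 1.64, 1.96 and 1.62, against 2.36, 1.84 and 1.48 in IPA libraries. The vehicle groups did not overlap, while the IPA groups did, with IPA replicate 1 above all crushed IPA libraries. The log2 change was 0.34 ± 0.13 under vehicle (adjusted p = 0.0405) and -0.08 ± 0.13 under IPA (adjusted p = 0.626). The vehicle call was lost without any single library of the comparison except PBS replicate 3: without PBS-SNC replicates 1, 2 and 3 the adjusted p was 0.109, 0.0586 and 0.0602, and without PBS replicates 1 and 2 it was 0.0957 and 0.119. DESeq2 on recovered reads gave 0.0547 for it.

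The regulators themselves did not pass on the values as deposited. Nfe2l2 (ENSMUSG00000015839, chromosome 2, 75675513 to 75704641) was 54.0, 46.7 and 45.8 in PBS-SNC libraries, against 47.9, 46.2 and 46.7 in PBS libraries, and 45.9, 46.4 and 50.7 in IPA-SNC libraries, against 45.2, 45.9 and 43.5 in IPA libraries. PBS-SNC replicate 1 and IPA-SNC replicate 3 stood above the rest of their groups and above all intact libraries, and the groups overlapped. The log2 change was 0.05 with a 95% interval of -0.08 to 0.19 under vehicle (limma adjusted p = 0.511), and -0.02 without PBS-SNC replicate 1. Under IPA it was 0.08, with an interval of -0.05 to 0.22 (adjusted p = 0.306). Keap1 (ENSMUSG00000003308, chromosome 9, 21229730 to 21239361) was 37.1, 41.4 and 44.4 in PBS-SNC libraries, against 44.5, 43.9 and 51.0 in PBS libraries, and 46.8, 48.0 and 41.1 in IPA-SNC libraries, against 50.8, 51.7 and 51.4 in IPA libraries. The vehicle groups overlapped, and all crushed IPA libraries were below all intact IPA libraries. Its log2 change was -0.18 ± 0.08 in each (adjusted p = 0.0698 under vehicle and 0.0723 under IPA). It passed under vehicle without PBS-SNC replicate 3 (-0.24, adjusted p = 0.0330) and under IPA when fitted on those 6 libraries alone (adjusted p = 0.0275). After removing GC and length trends it was called lower in each, by -0.20 under vehicle (adjusted p = 0.00153) and -0.17 under IPA (adjusted p = 0.00408). Keap1 shares 510 exon bases with the antisense gene Gm16754.

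Hmox1, haem oxygenase 1, one of the most inducible NRF2 targets and also a gene that macrophages express, did not pass after crush. It measured 24.3, 23.6 and 21.6 in PBS-SNC libraries, against 25.2, 23.6 and 25.2 in PBS libraries, and 26.7, 24.6 and 21.9 in IPA-SNC libraries, against 28.0, 26.7 and 24.1 in IPA libraries (ENSMUSG00000005413, chromosome 8, 75093621 to 75100589). Crushed and intact libraries overlapped under both treatments. The 95% interval of its log2 change was -0.26 to 0.08 under vehicle and -0.27 to 0.06 under IPA, which in fold terms reaches at most 1.05 and 1.04. With each library's GC and length trend removed it was called lower, by -0.22 under vehicle (adjusted p = 0.0199) and -0.20 under IPA (adjusted p = 0.0343). Sod2 (ENSMUSG00000006818, chromosome 17, 13006846 to 13040063) was 92.5, 81.7 and 83.4 in PBS-SNC libraries, against 88.2, 89.6 and 89.9 in PBS libraries, and 87.6, 90.3 and 88.1 in IPA-SNC libraries, against 86.6, 86.1 and 88.1 in IPA libraries. PBS-SNC replicate 1 was the highest of all 12 and the other crushed vehicle libraries the lowest. Its log2 change was -0.06 ± 0.05 under vehicle (limma adjusted p = 0.348) and -0.11 without that library (adjusted p = 0.0279), and 0.03 ± 0.05 under IPA (adjusted p = 0.665). With the GC and length trend removed it was 0.07 and 0.11, the second of which passed (adjusted p = 0.0357).

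**Figure D3:**
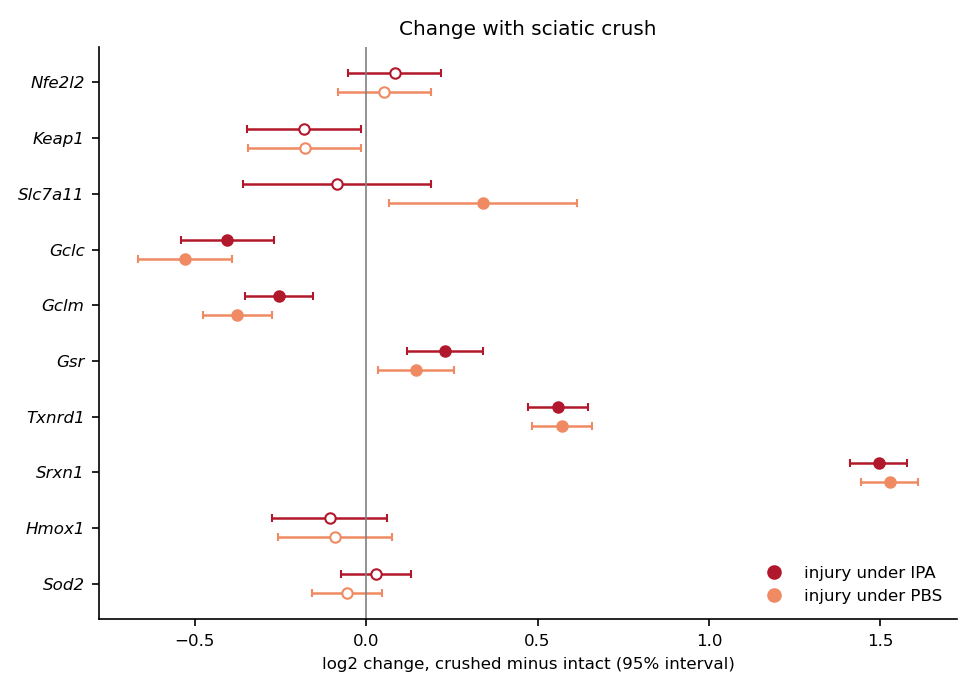
Log2 change with nerve crush of each gene (crushed minus intact) with its 95% interval from limma, for IPA mice (upper of each pair, red) and vehicle mice (lower, orange); filled points passed an adjusted p of 0.05. Srxn1 lies at 1.495 and 1.53 and Txnrd1 at 0.56 and 0.57, Gclc and Gclm lie between -0.53 and -0.25, and Slc7a11 passed under vehicle alone.

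Groups that did not overlap at all were counted as well. Under vehicle 3 members (Txnrd1, Srxn1, Slc7a11) were higher in every crushed library and 2 (Gclc, Gclm) lower, against 25.4% and 26.0% of all genes (51.4% in either direction). Under IPA 3 (Gsr, Txnrd1, Srxn1) were higher and 3 (Keap1, Gclc, Gclm) lower, against 27.2% and 30.8% of all genes (58.0% in either direction).

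Other genes of the pathway, and NADPH oxidase genes, were read from 8 lists of 117 genes in all, of which 114 passed the filter. The lists were chosen with earlier results of these data known. Their shares beside those of all genes are therefore no test of the pathway. Under vehicle 51 rose and 15 fell (limma, adjusted p under 0.05), which is 44.7% and 13.2% of those tested, beside 23.6% and 24.4% of all genes; the median log2 change was 0.16, beside -0.0045. Without PBS-SNC replicate 1, 53 rose and 21 fell, where 4080 of all 15603 genes rose and 4240 fell. Under IPA 48 rose and 16 fell, which is 42.1% and 14.0%, beside 21.2% and 22.5% of all genes, with a median of 0.14 beside -0.02. The counts of single lists that follow stand beside these same shares of all genes.

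Among 13 regulators 5 rose and 3 fell under vehicle. Bach1, the repressor that competes with NRF2, was 47.4 ± 1.7 in PBS-SNC and 18.2 ± 1.3 in PBS libraries, and 46.0 ± 2.2 in IPA-SNC and 16.6 ± 0.3 in IPA libraries (SD, n = 3 each), log2 changes of 1.36 and 1.45 (adjusted p = 4.37e-10 and 2.63e-10). Crushed and intact libraries of Bach1 did not come near each other. Mafk, a small MAF partner, rose by 0.52 and 0.55, and Dpp3, which binds KEAP1, by 0.42 and 0.41 on the log2 scale under vehicle and under IPA. Sqstm1, the autophagy receptor p62 that can sequester KEAP1, rose by 0.30 and 0.31, with 801 ± 25 in PBS-SNC and 652 ± 35 in PBS libraries.

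Of 26 tested genes of glutathione synthesis and use, 9 rose and 3 fell under vehicle, and 8 and 4 under IPA. Chac1, which breaks glutathione down, was 21.2 ± 3.0 in PBS-SNC and 4.34 ± 0.67 in PBS libraries, and 19.4 ± 2.0 in IPA-SNC and 4.48 ± 0.33 in IPA libraries, log2 changes of 2.17 and 2.00 (adjusted p = 4.62e-09 and 1.25e-08). Ggt5, a gamma-glutamyltransferase that cleaves glutathione conjugates outside the cell, rose by 1.12 and 0.78. Glrx2, the mitochondrial glutaredoxin, fell by 0.40 and 0.23 on the log2 scale. The peroxidase Gpx4, which removes lipid peroxides, had a log2 change of -0.12 under vehicle (adjusted p = 0.0761) and -0.14 under IPA (adjusted p = 0.0445); edgeR gave 0.0864 for the second, and without IPA-SNC replicate 2 or 3 or any IPA library limma gave 0.0844 to 0.135. Chac1 moved the opposite way to Gclc and Gclm, which make glutathione.

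Of 19 thioredoxin and peroxiredoxin genes, 10 rose and 1 fell under each treatment. The stress protein Sesn2 rose by 1.23 and 1.10, Txnrd3 by 0.69 and 0.73 and the mitochondrial peroxiredoxin Prdx3 by 0.52 and 0.45 on the log2 scale. Txn1, the cytosolic thioredoxin that Txnrd1 reduces, rose by 0.23 and 0.25, and Prdx1 by 0.20 and 0.22. The Prdx1 call was lost without PBS-SNC replicate 1 (0.12, adjusted p = 0.126) or without any PBS library (adjusted p = 0.0594 to 0.0831), and under IPA without IPA-SNC replicate 3 (0.14, adjusted p = 0.102) or IPA replicate 2 or 3 (0.0586 and 0.0681). Of 5 genes of superoxide and peroxide removal 1 rose under each treatment, the extracellular Sod3, by 0.38 and 0.25; under IPA that call was lost without IPA-SNC replicate 1 or 2 or IPA replicate 1 (limma adjusted p = 0.0507 to 0.115).

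Among 16 genes of haem and iron handling 6 rose and 4 fell under vehicle, and 5 and 4 under IPA. The iron importer Slc11a2 rose by 0.97 and 0.89, the biliverdin reductase Blvrb by 0.68 and 0.76 and the ferritin light chain Ftl1 by 0.60 and 0.58. The member Hmox1 did not pass on the values as deposited. Of 17 quinone, aldehyde and drug enzymes 5 rose and 3 fell under vehicle, and 6 and 3 under IPA. Akr1b8, an aldo-keto reductase, was 19.8 ± 1.0 in PBS-SNC and 3.54 ± 0.41 in PBS libraries, and 19.0 ± 1.2 in IPA-SNC and 3.98 ± 0.20 in IPA libraries, log2 changes of 2.33 and 2.12. Esd, an esterase, rose by 1.42 and 1.41, and the epoxide hydrolase Ephx1 fell by 0.85 and 0.94. Nqo1, the quinone reductase often read as the standard NRF2 target, was 7.18 ± 1.59 in PBS-SNC and 7.09 ± 0.23 in PBS libraries (log2 change -0.0030, adjusted p = 0.986). Osgin1, another such target, had log2 changes of 0.14 and 0.23 (adjusted p = 0.438 and 0.219). Close copies of Ftl1, Txn1 and Akr1b8 exist in the mouse genome, and their reads could have been split by the authors' counting.

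Of 10 genes of NADPH production, which feeds Gsr and Txnrd1, 8 rose and 1 fell under vehicle, and 7 and 1 under IPA. Taldo1 rose by 0.74 and 0.71, G6pdx, the entry enzyme of the pentose phosphate pathway, by 0.56 and 0.55 and the NAD kinase Nadk by 0.29 and 0.19. Of 8 tested NADPH oxidase genes, which make the superoxide and peroxide that these enzymes remove, 7 rose under vehicle and 5 under IPA. Nox4 rose by 1.13 in each, Cyba by 0.91 and 0.67, Ncf4 by 0.85 and 0.83 and Cybb, the phagocyte oxidase, by 0.62 and 0.845. Under vehicle the Cybb call was lost without PBS-SNC replicate 2 (adjusted p = 0.0531) or PBS replicate 2 (0.0741). The oxidase genes were low: the list summed to 15.6 to 23.5 in PBS libraries, and Ncf4 averaged 0.54 there, near the filter of 0.5. Of all genes 23.6% rose under vehicle and 21.2% under IPA, and the counts of these chosen lists are no test of the pathway.

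**Figure D4:**
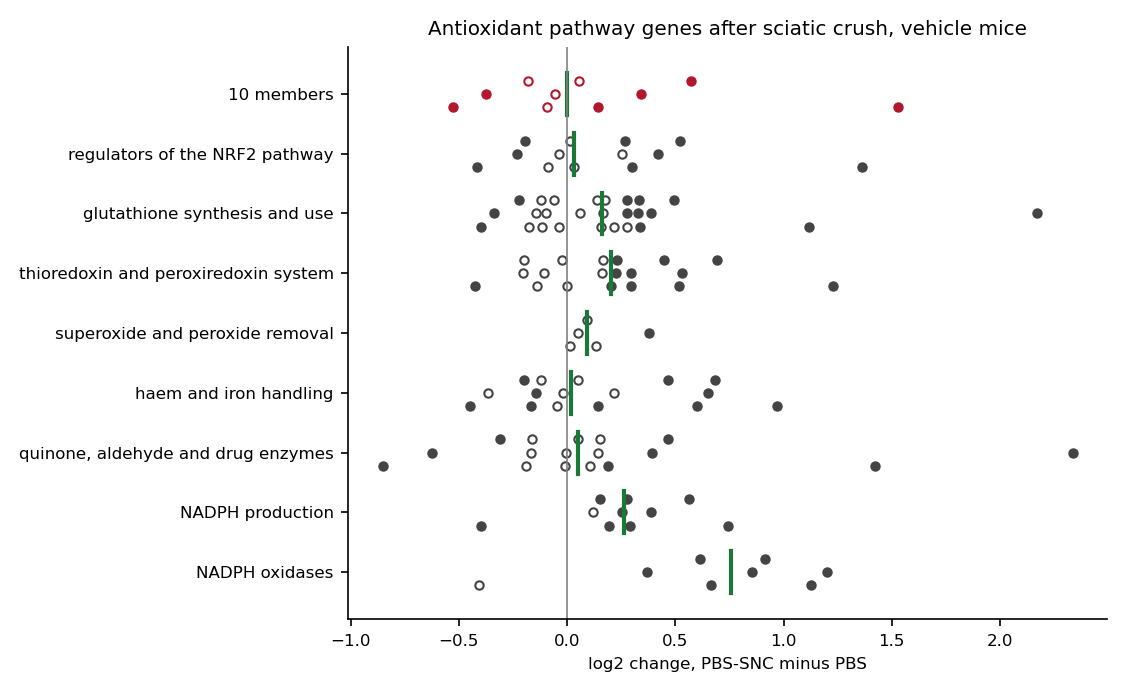
Log2 change with crush in vehicle mice (PBS-SNC minus PBS) of the 10 members (red) and the 114 tested genes of 8 pathway lists (grey), with medians as green bars; filled points passed an adjusted p of 0.05. Members run from -0.53 to 1.53, the points furthest right are Chac1 (2.17) and Akr1b8 (2.33), and the oxidase and NADPH production lists lie mostly right of 0.

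Markers of cell types were counted as well, beside 23.6% of all genes higher and 24.4% lower under vehicle, and 21.2% and 22.5% under IPA. All 13 macrophage markers rose under vehicle and 12 of 13 under IPA, with a summed level of 180.0 to 198 in PBS-SNC against 50.8 to 65.2 in PBS libraries, and 175 to 204 in IPA-SNC against 49.6 to 73.3 in IPA libraries. Neutrophil markers summed to 29.6 to 52.4 in PBS-SNC and 11.1 to 34.5 in PBS libraries, with 1 of 8 higher, and to 23.9 to 84.1 in IPA-SNC and 13.0 to 23.7 in IPA libraries, with 4 of 8 higher. Sensory neuron markers summed to 15636 to 16772 in PBS-SNC and 17936 to 18939 in PBS libraries, with 1 of 10 higher and 7 lower. Of 9 satellite glia markers 2 rose under vehicle, and 2 rose and 2 fell under IPA. Of 7 fibroblast and meningeal markers 4 rose under vehicle and 2 under IPA, and of 7 endothelial and pericyte markers 1 rose and 2 fell under each. No marker of myelinating Schwann cells (7), erythroid cells (6) or skeletal muscle (6) passed under either treatment with all libraries fitted. Summed muscle markers were 80.9 to 249.5 in PBS-SNC and 62.8 to 103 in PBS libraries. Of 5 lymphocyte markers 1 passed the filter and fell under each treatment. That call was lost under vehicle without PBS-SNC replicate 2 or PBS replicate 3. Under IPA it was lost without IPA-SNC replicate 1, IPA replicate 2 or IPA replicate 3. Without PBS-SNC replicate 2, 5 muscle markers rose and 2 Schwann cell markers fell under vehicle. Without PBS replicate 2, 2 erythroid markers fell. Under IPA, 4 muscle markers rose and 1 erythroid marker fell without IPA-SNC replicate 3. Cybb, Cyba and Ncf4, oxidase genes that phagocytes express, rose beside the macrophage markers. Without PBS-SNC replicate 1, all 13 macrophage markers still passed, 5 fibroblast and 2 endothelial markers rose and 1 satellite glia marker fell under vehicle, and the other counts under vehicle were the same. Leaving out each library in turn gave 11 to 13 macrophage markers higher under IPA. In the same fits 1 to 6 neutrophil markers were higher under IPA and 1 in each fit under vehicle. The neutrophil counts of the treatments are therefore not shown to differ. Fibroblast and meningeal markers higher under vehicle came to 2 to 6. Endothelial and pericyte markers under IPA came to 0 to 2 higher and 0 to 2 lower, and no such fit repeated the count of the full fit. The part of changed cell numbers in the changes of the members was not tested.

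The genes most like Srxn1 over the 12 libraries, by the mean absolute difference of centred log2 values, were Mtus2 (0.031), Gfra1, a receptor subunit for GDNF (0.041), and Myo10, an unconventional myosin (0.052). Gfra1 averaged 413 in PBS-SNC and 136 in PBS libraries, and 374 in IPA-SNC and 129 in IPA libraries. No other member changed by over 1.5-fold in both injury comparisons, which the rule for this comparison asked for.

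IPA was compared with vehicle to ask whether it altered these genes before or after the crush, and no member passed in either setting. With the nerve intact, 0 of 10 members passed (limma, 0% of all genes; 0 members at an unadjusted p under 0.05; 0 members by edgeR and 0 by DESeq2). After the crush 0 of 10 passed (0% of all genes; 2 members at an unadjusted p under 0.05; 0 by edgeR and 0 by DESeq2). Over all genes, limma and edgeR called 0 and DESeq2 called 3 without injury and 15 after it; at an unadjusted p under 0.05, limma found 1902 and 1258. When libraries were weighted by their scatter, Keap1 (0.19) and Gclc (-0.16) passed without injury and 6 members passed after it, on weights that reached 42.2 for IPA-SNC replicate 2 and under which 26.7% and 25.6% of all genes passed. The comparison with injured vehicle mice used the same PBS-SNC libraries that served the injury comparison, so the values are given side by side and not as independent results.

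With the nerve intact, Srxn1 averaged 292 ± 5 in IPA and 300.4 ± 1.9 in PBS libraries (SD, n = 3 each), a ratio with a 95% interval of 0.917 to 1.03. Nfe2l2, Gclm, Srxn1 and Sod2 were lower in every IPA library than in every PBS library, where 12.5% of all genes were, and no member was higher throughout, where 12.7% of all genes were (25.2% in either direction). These differences were small: the log2 change was -0.06 for Nfe2l2, -0.07 for Gclm, -0.04 for Srxn1 and -0.04 for Sod2 (limma adjusted p = 0.485 to 0.708). Once GC and length trends were taken out, Sod2 stood at 0.07 and Gclm at 0.04. Keap1 averaged 51.3 ± 0.4 in IPA and 46.5 ± 3.9 in PBS libraries (0.14, adjusted p = 0.418), and Gclc 46.5 ± 0.7 and 51.0 ± 3.5 (-0.13, adjusted p = 0.409). Across the 10, the intervals of the ratio of IPA to PBS ran from 0.832 (Gclc) to 1.27 (Slc7a11), so changes of 1.5-fold lay outside all of them.

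After the crush, Slc7a11 was the member with the largest difference. It averaged 1.74 ± 0.19 in IPA-SNC and 2.36 ± 0.22 in PBS-SNC libraries, and all 3 IPA-SNC libraries were lower, with a log2 change of -0.35 ± 0.13 (limma adjusted p = 0.581). Gsr averaged 80.2 ± 1.1 in IPA-SNC and 73.2 ± 1.6 in PBS-SNC libraries and was higher in all 3, with a log2 change of 0.13 ± 0.05 (limma adjusted p = 0.589). Srxn1 averaged 824 ± 23 in IPA-SNC and 866 ± 14 in PBS-SNC libraries and was lower in all 3 (-0.07 ± 0.04, adjusted p = 0.637). Members without overlap were thus 1 higher and 2 lower, where 5.86% and 5.58% of all genes were (11.4% in either direction). Nfe2l2, Keap1, Hmox1, Gclc, Gclm, Txnrd1 and Sod2 overlapped. The log2 change was -0.03 for Nfe2l2, -0.0058 for Gclc and -0.03 for Txnrd1, against 0.04, 0.06 and 0.0031 without PBS-SNC replicate 1. The interval of the ratio ran from 0.648 to 0.947 for Slc7a11, and between 0.890 and 1.24 for the other 9 members.

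**Figure D5:**
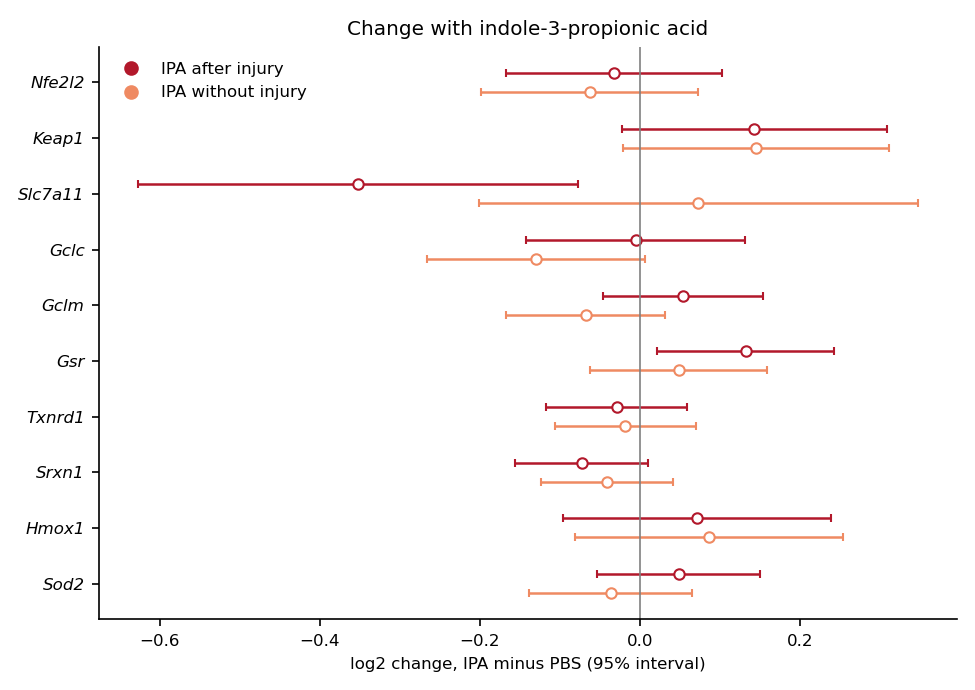
Log2 change with IPA (IPA minus PBS) of each gene with its 95% interval from limma, after injury (upper of each pair, red) and without injury (lower, orange); all points are open since none passed an adjusted p of 0.05. Slc7a11 after injury lies at -0.35, and the others lie between -0.13 and 0.14.

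The difference between the injury effects under IPA and under vehicle was tested as an interaction. Dosing with IPA ran 3 days longer in IPA-SNC than in IPA mice, so length of dosing cannot be told apart here either. No member passed (0 of 10 by limma, 1 at an unadjusted p under 0.05, 0 by edgeR and 0 by DESeq2; 0% of all genes, of which 327 were at an unadjusted p under 0.05). Slc7a11 had the largest value, -0.43 ± 0.18 (limma adjusted p = 1.00). Its call under vehicle and not under IPA is therefore not shown to be a difference. Gclc and Gclm had 0.12 ± 0.09 and 0.12 ± 0.07, and Srxn1 -0.03 with a 95% interval of -0.15 to 0.09.

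Of the 114 tested pathway genes none passed with IPA in either setting or in the interaction by limma. Without injury the smallest p values belonged to Mgst3, a microsomal glutathione transferase (68.5 ± 2.7 in IPA and 61.7 ± 2.5 in PBS libraries), and Gpx1, the main cytosolic glutathione peroxidase (113 ± 5 and 96.4 ± 9.1), each with adjusted p = 0.408. After injury they belonged to Blvrb (41.1 ± 1.4 in IPA-SNC and 35.7 ± 1.5 in PBS-SNC libraries, adjusted p = 0.578) and Gpx3, the plasma glutathione peroxidase (72.6 ± 1.5 and 65.3 ± 1.0, adjusted p = 0.581). In the interaction they belonged to Glrx2 (0.16) and Ggt5 (-0.33), each with adjusted p = 1.00.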

How the data were processed

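Poly(A) RNA of pooled DRG was sequenced; the 3 pools of a group are its replicates, per the labels. The authors deposited 1 table whose name says FPKM, but its values are CPM-like: each library has a single value per read, whatever the gene, and dividing by it gave whole numbers for 100% of values (tolerance 1e-06), so the reads could be recovered. Columns sum to 803444 to 818767. The tools listed in the submitters' processing notes are FastQC 0.10.1, STAR 2.7.0, limma 3.38.3, edgeR 3.24.3 and R 3.5.0, and the build is mm10; their roles are not stated. The sources used here give neither the counter nor its strand setting. Replicate pairs differed by more than sampling noise, with a chi-square of 4.55 to 26.3 for each degree of freedom. Every value column was assigned to a sample.

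A pseudocount of 0.5 was added before taking log2. The 15603 genes that reached 0.5 in 3 or more of the 12 libraries were fitted in 1 limma-trend model of 4 group means (limma 3.58.1, R 4.3.3; 8 residual degrees of freedom), tested two-sided with Benjamini-Hochberg adjustment over all genes at 0.05. Fold changes on this scale understate those of low genes. The model was also run on simulated counts with few changed genes, unlike the injury comparisons here, and no result is drawn from that run. The design named edgeR in case the file held counts. As it held scaled values, limma stayed the main test, and edgeR 4.0.16 and DESeq2 1.42.0 ran on the recovered reads as alternatives. Coordinates and exon lengths are from GENCODE M21 (GRCm38), promoters from RefSeq. GC content and length (longest transcript) were known for 97.9% of tested genes; their trend in each library was removed with splines in an alternative. The list symbols Adgre1, Hbb-bs and Hbb-bt were matched through Ensembl IDs. Alternatives covered the pseudocount, filter, scaling, replicate block, array weights, GC and length, and leaving out each library; pathway lists went through the same ones, and marker lists through the last, chosen after seeing the data.

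The members and lists were chosen with earlier results of these data known. Genes named were the 10 members; up to 3 genes per pathway list with the smallest p among those past the threshold under vehicle; the 2 with the smallest p in each IPA comparison and the interaction; 10 fixed genes; marker genes as examples; and, for members changed over 1.5-fold in both injury comparisons, the 3 most similar genes.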

Additional observations from a re-analysis of the deposited data

How the results depend on the processing

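Of 1050 member values under 26 alternatives, 1008 kept their side of the threshold, 12 lost a call (Gsr and Slc7a11 under vehicle) and 30 gained one. The sign changed in 48, none of them of a call. The array weights ran from 0.146 to 42.2 and their estimate stopped before its tolerance. With them 8 members passed for injury under PBS, 8 for injury under IPA, 2 for IPA without injury, 6 for IPA after injury and 3 in the interaction, and over all genes 10547, 11150, 4160, 4000 and 2126. Weights estimated gene by gene (0.185 to 4.86), chosen after seeing the data, gave 2 members (Keap1 and Gclc) and 3273 genes for IPA without injury, and 324 genes after injury and 2 in the interaction. Both give IPA-SNC replicate 2 the most weight, and the cause of these counts was not tested. With the GC and length trend removed, 8 members passed for injury under PBS (54.6% of all genes) and 8 under IPA (50.9%); the cause was not tested. On recovered reads, edgeR called 7493 genes for injury under PBS and 6936 under IPA, and 0 for IPA in either setting and the interaction. DESeq2 called 3, 15 and 3 genes for IPA without injury, after injury and in the interaction. Leaving out 1 library gave 0 to 1 genes for IPA after injury (1 without IPA-SNC replicate 2 or 3), 4 to 6 members and 6332 to 8320 genes for injury under PBS, and 5 members and 5681 to 6526 genes under IPA. With the replicate number as a block, 6 and 5 members and 7210 and 6515 genes passed for injury under PBS and under IPA; same-numbered libraries correlated at -0.252 to 0.205, and 1 of 12 correlated best with its own number. Pathway genes lower after injury under PBS came to 26 with array weights, 25 with weights gene by gene and 23 after removing GC and length trends. In these fits 67.6%, 61.7% and 54.6% of all genes passed in either direction. Under IPA they came to 28 and 26 with the 2 kinds of weights, where 71.5% and 63.1% of all genes passed. With array weights 24 pathway genes were higher and 8 lower for IPA without injury, 17 and 19 after injury, and 5 and 11 in the interaction; gene by gene, 19 and 4 without injury and 1 higher after it. Leaving out 1 library gave 42 to 53 higher and 11 to 21 lower under PBS, and 41 to 45 and 11 to 20 under IPA. Marker counts were recomputed only with each library left out. Depth limits Slc7a11 alone among the members, at 86 to 160 reads.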
